A study of Mus musculus with 8 samples.

Results

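The 32 genes described here act in DNA replication and mitosis and were chosen by name: Mcm2 to Mcm7, Rrm2 and Tyms for replication (8 genes), and 24 genes of mitotic entry, the spindle, the chromosomes and cytokinesis. The choice was made with earlier results of these data known. All 32 were among the 33105 genes of the deposited count table, and all 32 passed the filter on low counts that left 16603 genes for testing. Messenger RNA was sequenced from snap-frozen hearts of C57BL/6J mice, with 4 libraries labelled Sham and 4 labelled MR, for mitral regurgitation, a leak of the mitral valve made here by minimally invasive surgery. Strain, tissue and extraction were the same in both groups. The sources used here do not give the part of the heart, the time after surgery, or the age and sex of the mice. Nor do the labels say that each library came from its own animal, so the p-values measure only the spread among these libraries, and that spread may be technical.

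A cell that divides first loads the MCM complex, a ring of Mcm2 to Mcm7 that unwinds DNA, and makes deoxynucleotides with enzymes such as ribonucleotide reductase and thymidylate synthase. Cyclins A and B with the kinase Cdk1 then drive it into mitosis, where motor proteins build the spindle and the checkpoint holds back the anaphase-promoting complex until the chromosomes are attached. Heart muscle cells of adult mice rarely divide, and other cells of the heart, such as fibroblasts, endothelial cells and immune cells, can. In whole tissue, fewer cells of a type and less RNA per cell cannot be told apart.

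Most of these genes had a higher mean in MR than in Sham, but none of the 32 passed the test. In the edgeR quasi-likelihood test with Benjamini-Hochberg adjustment over all genes, 0 rose, 0 fell and 32 did not pass, where 0.458% of all genes tested passed (0.241% higher and 0.217% lower in MR). The lowest adjusted p among the 32 was 0.131. The log2 fold change of MR over Sham was positive in 29 and negative in 3, and it was positive in 50.4% of all genes tested. Its median was 0.60 over the 32 genes, 0.36 over the 8 replication genes and 0.65 over the 24 mitotic genes, beside 0.00 over all genes tested. At an unadjusted p under 0.05, 12 of the 32 were higher and 1 was lower, where the same threshold took 7.78% of all genes as higher and 7.29% as lower. DESeq2 called 0 of the 32 higher and 1 lower, Cenpf, with 1.89% and 1.88% of all genes. Limma-voom with quality weights called Mcm6 higher and Cenpf lower, with 1.49% and 1.26% of all genes. Without the filter on low counts, edgeR called 9 higher (Anln, Ccna2, Cdk1, Cenpe, Hmmr, Kif11, Mcm5, Mcm6 and Ube2c) and 0 lower, with 1.69% and 1.37% of all genes.

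MR replicate 2 and Sham replicate 3 were the highest libraries of their groups for most of these genes. MR replicate 2 held the highest value of all 8 libraries in 29 of the 32, and Sham replicate 3 was the highest Sham library in 28. Over all genes tested they held those places in 11.4% and 26.9%. Without Sham replicate 3, 7 of the 32 rose (Bub1b, Ccna2, Ccnb1, Cdc20, Mcm5, Mki67 and Ube2c) and 0 fell. That fit took 2.96% of all genes as higher and 2.32% as lower, and the median log2 fold change of the 32 was 0.91. Leaving out the highest Sham library of a gene raises its fold change by construction, and leaving out the highest MR library lowers it. These calls are therefore no separate support. With each other library left out, 0 of the 32 rose and 0 fell. Without MR replicate 2, 0 rose and 0 fell, with 0.0298% of all genes higher and 0.0298% lower, and the median was 0.37. At an unadjusted p under 0.05 that fit took 5 of the 32 as higher and 1 as lower, with 6.79% and 6.21% of all genes. In 21 of the 32, at least 1 fit with a library left out moved the log2 fold change by over 1.5 times or changed its sign. These were 5 of the 8 replication genes and 16 of the 24 mitotic genes. Small log2 fold changes, as for Mcm4 and Mcm7, meet this limit easily. No share over all genes is given for it, so it does not set these genes apart.

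**Figure D1:**
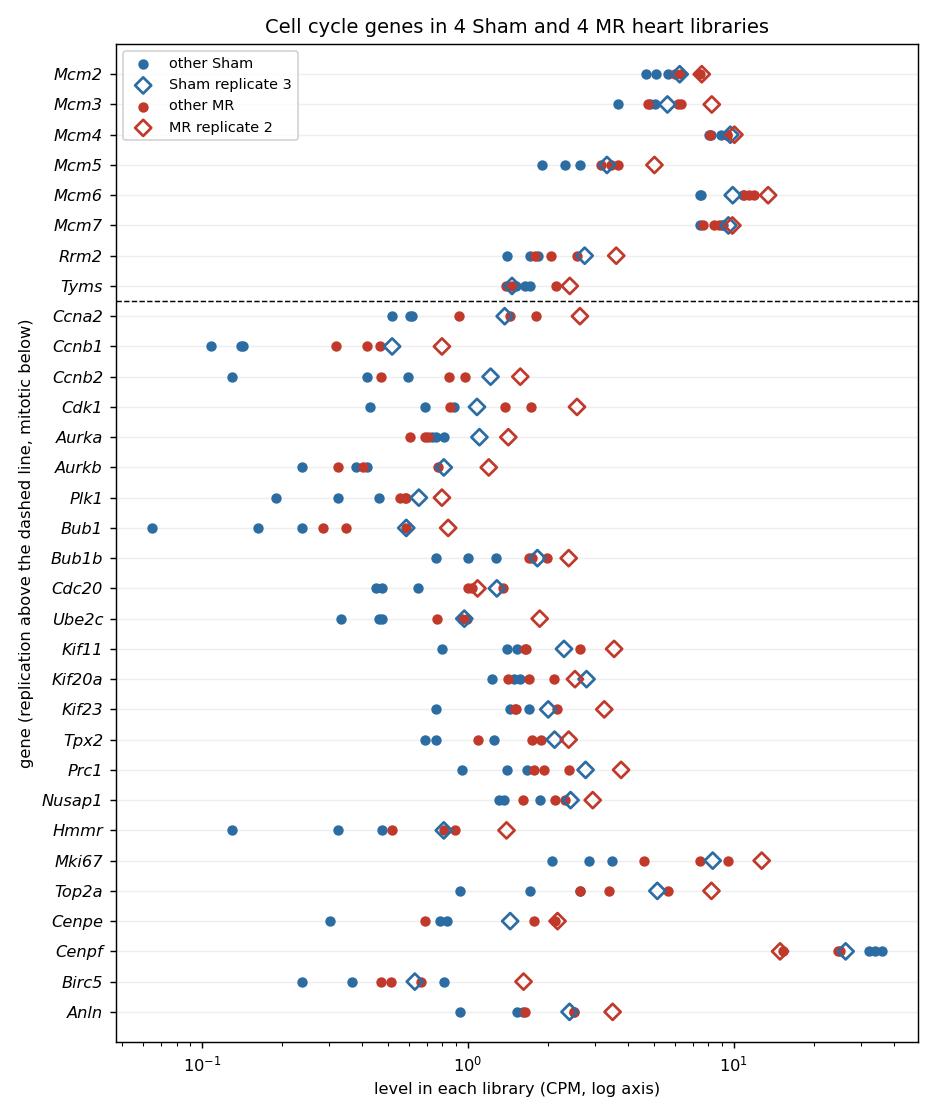
Level of each of the 32 genes in each library in CPM (counts per 1000000 of the scaled library total) on a log axis, with Sham in blue and MR in red. Open diamonds mark Sham replicate 3 and MR replicate 2; the latter is the rightmost point in 29 genes, and Cenpf is the only gene with all MR points to the left of all Sham points.

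Mcm4, Mcm6 and Mcm7 had the highest levels of the 32 per length of transcript, at a mean of 2.51, 2.24 and 1.97 CPM per kilobase of exon over the 8 libraries. Mcm3 was at 1.49, Mcm2 at 0.882 and Mcm5 at 0.798 on that scale. Mcm6 (ENSMUSG00000026355, chromosome 1, 128331590 to 128359664, GRCm38, protein-coding) had 10.8, 7.56, 9.91 and 7.47 CPM in the 4 Sham libraries in order of replicate. The 4 MR libraries had 11.9, 13.5, 11.5 and 11.0 CPM. Every MR library was thus above every Sham library, with 10.84 and 10.97 CPM as the closest values. No other member had MR above Sham throughout, a pattern shown by 4.19% of all genes tested. The log2 fold change of Mcm6 was 0.42 ± 0.12 (SE), with an edgeR adjusted p of 0.132, and in limma-voom it was 0.52 with an adjusted p of 0.0336.

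For Mcm5 the Sham libraries had 2.32, 2.63, 3.33 and 1.90 CPM, and the MR libraries 3.66, 5.03, 3.16 and 3.45 CPM. Only Sham replicate 3 reached into the MR range. The Mcm5 log2 fold change was 0.59 ± 0.19 (SE; edgeR adjusted p 0.155), and without Sham replicate 3 it was 0.74 (adjusted p 0.0368) and without MR replicate 2 it was 0.43 (adjusted p 0.350). Mcm2 and Mcm3 had log2 fold changes of 0.34 and 0.41 in edgeR, with adjusted p of 0.210 and 0.266 and overlapping groups.

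Mcm4 and Mcm7, which belong to the same ring, had log2 fold changes of 0.08 and −0.02 (edgeR adjusted p 0.741 and 0.965). Mcm4 averaged 8.74 ± 0.752 CPM over the Sham libraries and 9.26 ± 0.821 CPM over the MR libraries (SD, n = 4 each). Mcm7 averaged 8.77 ± 0.907 and 8.68 ± 0.930 CPM, and it turned positive with other settings. In both genes the means lay less than 1 SD apart. The Mcm7 value is uncertain, since Ap4m1 and Cops6 overlap its exons on the opposite strand and the processed pseudogene Gm5487 matches it at 97.7% identity over 2157 bases.

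Rrm2, the regulated small subunit of ribonucleotide reductase, had 1.83, 1.71, 2.75 and 1.40 CPM in the Sham libraries, and 2.04, 3.61, 1.79 and 2.56 CPM in the MR libraries. Sham replicate 3 was above 3 of the 4 MR libraries, and the log2 fold change was 0.38 ± 0.24 (SE; edgeR adjusted p 0.498), with 0.16 without MR replicate 2 and 0.60 without Sham replicate 3. Neither of those values passed. Tyms, the thymidylate synthase, averaged 1.58 ± 0.116 CPM over Sham and 1.85 ± 0.506 CPM over MR (SD, n = 4 each), with a log2 fold change of 0.23 and an edgeR adjusted p of 0.650. MR replicates 1 and 2, with 2.15 and 2.42 CPM, exceeded the Sham maximum of 1.72 CPM, and MR replicates 3 and 4 did not. The Tyms transcript shares stretches of at least 200 bases at 95% identity or more with transcripts of other genes, so its level is uncertain.

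Among the genes of entry into mitosis, Ccna2, Ccnb1 and Cdk1 had the largest log2 fold changes of the 32, and none passed with all libraries. Ccna2, cyclin A2, had 0.604, 0.616, 1.37 and 0.518 CPM in the Sham libraries. The MR libraries had 1.80, 2.64, 1.44 and 0.921 CPM. Sham replicate 3 lay above MR replicate 4, and the other 3 Sham libraries lay below every MR library. The Ccna2 log2 fold change was 1.12 ± 0.36 (SE; edgeR adjusted p 0.161), 1.54 without Sham replicate 3 (adjusted p 0.0186) and 0.83 without MR replicate 2 (adjusted p 0.338). Ccna2 shares 431 bases with Exosc9, which overlaps it on the opposite strand.

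Cdk1, the kinase that both cyclins activate, had 0.882, 0.426, 1.08 and 0.691 CPM in the Sham libraries and, in the MR libraries, 1.38, 2.57, 1.72 and 0.854 CPM. Only MR replicate 4 fell within the Sham range. The Cdk1 log2 fold change was 1.07 ± 0.34 (SE; edgeR adjusted p 0.154). Ccnb1, cyclin B1, was the scarcest of the 32 per kilobase of exon, at 0.0862 CPM. Its Sham libraries had 0.139, 0.142, 0.518 and 0.108 CPM, from 5 to 23 counts, and its MR libraries 0.465, 0.798, 0.418 and 0.318 CPM. Sham replicate 3 again lay among the MR libraries, above 3 of them. The Ccnb1 log2 fold change was 1.12 ± 0.49 (SE; edgeR adjusted p 0.297), 1.91 without Sham replicate 3 (adjusted p 0.0292) and 0.80 without MR replicate 2 (adjusted p 0.530). Its counts may be split with 3 processed pseudogenes in the table, at 97.3% to 99.2% identity. Ccnb2, cyclin B2, averaged 0.589 ± 0.460 CPM over Sham and 0.967 ± 0.458 CPM over MR (SD, n = 4 each), a difference below 1 SD (log2 fold change 0.70, edgeR adjusted p 0.578, and from 0.36 to 1.34 with a library left out).

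Of the 5 mitotic kinase and checkpoint genes, 4 had positive log2 fold changes and 0 passed. Bub1b, which encodes the checkpoint protein BubR1, had 0.998, 1.28, 1.82 and 0.756 CPM in the Sham libraries and, in the MR libraries, 1.70, 2.39, 1.98 and 1.74 CPM. Only Sham replicate 3 was inside the MR range. The Bub1b log2 fold change was 0.68 ± 0.24 (SE; edgeR adjusted p 0.201), 0.95 without Sham replicate 3 (adjusted p 0.0301) and 0.57 without MR replicate 2 (adjusted p 0.381). Its lowest value, 0.51, came without Sham replicate 4. Bub1, a checkpoint kinase, ran from 0.0648 CPM in Sham replicate 4, which is 3 counts, to 0.842 CPM in MR replicate 2, which is 38 counts. Its log2 fold change was 0.96 ± 0.53 (SE; edgeR adjusted p 0.428), with 0.62 without MR replicate 2 and 1.72 without Sham replicate 3. Plk1, a kinase of mitotic entry and cytokinesis, had a log2 fold change of 0.62, and Aurkb, the kinase of the chromosomal passenger complex, 0.54 (edgeR adjusted p 0.428 and 0.619). With a library left out, Plk1 ran from 0.39 (without Sham replicate 2) to 0.94, and Aurkb from 0.12 (without MR replicate 2) to 0.96, both highest without Sham replicate 3. Plk1 is uncertain, since Gm44985 overlaps its exons on the opposite strand. Aurka, the kinase of the spindle poles, averaged 0.852 ± 0.171 CPM over Sham and 0.854 ± 0.379 CPM over MR (SD, n = 4 each; edgeR adjusted p 0.998). MR replicate 2 alone, with 1.42 CPM, was above the Sham range of Aurka, and the other 3 MR libraries were below it.

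Ube2c, the ubiquitin-conjugating enzyme of the anaphase-promoting complex, had 0.464, 0.332, 0.968 and 0.475 CPM in the Sham libraries and 0.951, 1.86, 0.767 and 0.988 CPM in the MR libraries. Sham replicate 3 was above MR replicates 1 and 3, and the other Sham libraries were below every MR library. The Ube2c log2 fold change was 1.02 ± 0.36 (SE; edgeR adjusted p 0.190), 1.42 without Sham replicate 3 (adjusted p 0.0333) and 0.69 without MR replicate 2 (adjusted p 0.419). Cdc20, which activates the complex, had 0.650, 0.450, 1.28 and 0.475 CPM in Sham. Its MR libraries had 1.36, 1.09, 0.999 and 1.04 CPM, and here MR replicate 1 was the highest library. The Cdc20 log2 fold change was 0.65 ± 0.31 (SE; edgeR adjusted p 0.352), 1.09 without Sham replicate 3 (adjusted p 0.0321), and lowest without Sham replicate 2, at 0.48. Its adjusted p reached 0.647 with a library left out. Ube2c and Cdc20 overlap exons of Tnnc2 and Elovl1 on the opposite strand, and reads of each pair cannot be told apart if strand was not used in counting.

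The 7 spindle genes had log2 fold changes from 0.13 to 1.05, with a median of 0.53, and 0 passed. Kif11, the motor that pushes the spindle poles apart, had 1.53, 1.40, 2.30 and 0.799 CPM in the Sham libraries. The MR libraries had 2.63, 3.55, 1.65 and 1.64 CPM, so that Sham replicate 3 lay above MR replicates 3 and 4 (log2 fold change 0.65 ± 0.32 SE, edgeR adjusted p 0.366). Hmmr, which encodes a hyaluronan receptor that also binds spindle microtubules, ran from 0.130 to 0.811 CPM over Sham and from 0.519 to 1.40 CPM over MR, with a log2 fold change of 1.05 and an edgeR adjusted p of 0.284. Kif23, Prc1, Tpx2 and Nusap1, which bundle or organise microtubules, had log2 fold changes of 0.51, 0.53, 0.55 and 0.37 (edgeR adjusted p 0.458 to 0.480). Kif20a, a motor of the central spindle, was at 0.13, and Sham replicate 3 was its highest library, with 2.79 CPM against 2.53 CPM in MR replicate 2. Kif20a and Prc1 share 979 and 670 bases with Cdc23 and Rccd1 on the opposite strand, and Nusap1 overlaps Oip5, so these values are uncertain.

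Mki67 encodes Ki-67, a protein that coats mitotic chromosomes and a general marker of proliferating cells. Mki67 (ENSMUSG00000031004, chromosome 7, 135689784 to 135716361, GRCm38, protein-coding) had 3.48, 2.84, 8.33 and 2.07 CPM in the Sham libraries. The MR libraries had 9.53, 12.7, 7.44 and 4.61 CPM. Sham replicate 3 was above MR replicates 3 and 4, and the other 3 Sham libraries were below every MR library. Its means were 4.18 ± 2.83 and 8.58 ± 3.43 CPM (SD, n = 4 each), with a log2 fold change of 1.03 ± 0.51 (SE; edgeR adjusted p 0.404). Without Sham replicate 3 the log2 fold change of Mki67 was 1.61 (adjusted p 0.0423), and without MR replicate 2 it was 0.78 (adjusted p 0.588). Without both libraries, a choice made after seeing the data, Mki67 was at 1.36 and Ccna2 at 1.25 (edgeR adjusted p 0.0297 and 0.0402). That fit called those 2 of the 32 higher and 0 lower, with 2.1% of all genes higher and 1.42% lower.

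Top2a, the topoisomerase that untangles replicated chromosomes, had 2.65, 1.71, 5.16 and 0.929 CPM in the Sham libraries and, in the MR libraries, 5.67, 8.24, 3.39 and 2.65 CPM. As for Mki67, Sham replicate 3 lay above MR replicates 3 and 4. The Top2a log2 fold change was 0.93 ± 0.58 (SE; edgeR adjusted p 0.513), with 0.58 without MR replicate 2 and 1.5 without Sham replicate 3. Cenpe, the kinetochore motor, was 1.99-fold higher in MR (edgeR adjusted p 0.307). It ran from 0.302 to 1.44 CPM over Sham and from 0.687 to 2.17 CPM over MR. Anln, the scaffold of the cytokinetic ring, was 1.56-fold higher in MR (edgeR adjusted p 0.293). It ran from 0.929 to 2.41 CPM over Sham and from 1.64 to 3.50 CPM over MR, and in both genes the groups overlapped. Birc5, the passenger complex protein survivin, had a log2 fold change of 0.66 (edgeR adjusted p 0.533), and of 0.10 without MR replicate 2, whose 1.62 CPM stood beside 0.469 to 0.668 CPM in the other MR libraries.

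Cenpf had lower values in MR and did not pass in edgeR. It encodes a large kinetochore protein that binds microtubules and also has roles outside mitosis, including in heart muscle cells. Cenpf (ENSMUSG00000026605, chromosome 1, 189640606 to 189688086, GRCm38, protein-coding) had 32.2, 34.04, 26.4 and 36.1 CPM in the Sham libraries. The MR libraries had 24.7, 14.9, 25.2 and 15.3 CPM, all below every Sham library, a pattern shown by 3.91% of all genes tested. The log2 fold change was −0.69 ± 0.19 (SE; edgeR adjusted p 0.131), and −0.81 to −0.57 with any 1 library left out, none of which passed (adjusted p 0.0575 to 0.309). Nor did it pass without the filter on low counts (adjusted p 0.0844). Cenpf passed in DESeq2 (adjusted p 0.00416) and in limma-voom (adjusted p 0.0435). Per kilobase of exon Cenpf stood at 1.69 CPM, beside 0.634 for Mki67, the next of the mitotic genes. Sham replicate 4, the lowest library for 17 of the 32 genes, was the highest for Cenpf, and MR replicate 2 was its lowest. The summed level of 7 cardiomyocyte markers ran from 44591 to 52568 CPM over Sham and from 40257 to 46457 CPM over MR, and its part in the Cenpf difference was not tested.

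**Figure D2:**
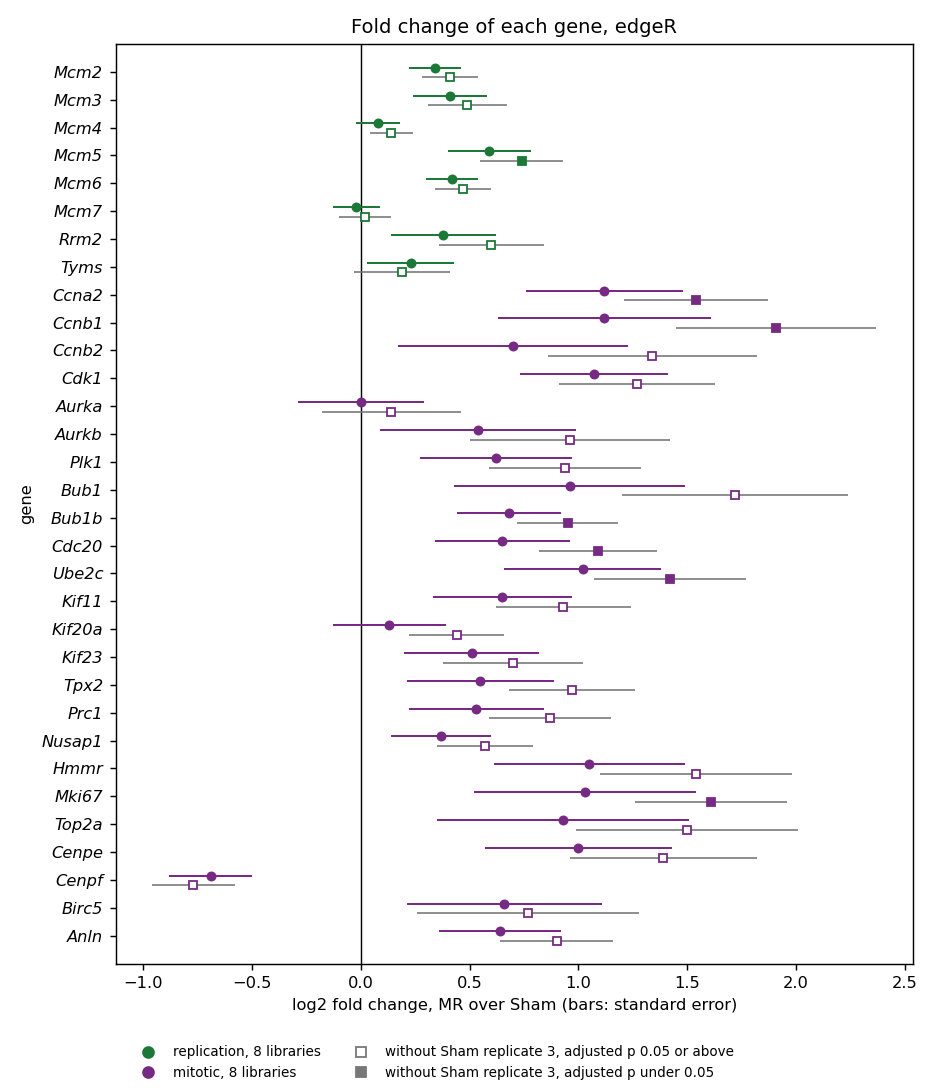
Log2 fold change of MR over Sham for each gene in edgeR, with bars of 1 standard error. Circles use all 8 libraries, where no adjusted p was below 0.131. Squares leave out Sham replicate 3 and are filled for the 7 genes with an adjusted p under 0.05. Sham replicate 3 was the highest Sham library in 28 of the 32 genes, so leaving it out raises their fold changes by construction.

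The 8 replication genes and the 24 mitotic genes placed the libraries in a similar order. The level of a set in a library was taken as the mean log2(CPM + 0.5) of its genes. The replication level was 2.33, 2.21, 2.51 and 2.19 in the Sham libraries and 2.59, 2.85, 2.41 and 2.44 in the MR libraries. The mitotic level was 0.68, 0.53, 1.21 and 0.35 in the Sham libraries and 1.20, 1.57, 1.0 and 0.78 in the MR libraries. On both scales Sham replicate 4 was lowest and MR replicate 2 highest, and Sham replicate 3 lay above MR replicates 3 and 4. These levels are a description and carry no test.

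The mean replication level was 2.31 ± 0.15 over Sham and 2.57 ± 0.20 over MR (SD, n = 4 each), a difference of 0.27. The mean mitotic level was 0.69 ± 0.37 over Sham and 1.14 ± 0.34 over MR, a difference of 0.45. Both differences exceeded 1 SD within either group. The replication level minus the mitotic level was 1.65, 1.68, 1.30 and 1.85 in the Sham libraries and 1.39, 1.27, 1.42 and 1.66 in the MR libraries. That gap was smallest in MR replicate 2 and Sham replicate 3, and the groups overlapped. As plain sums, the 8 replication genes held 38.4 to 48.6 CPM over Sham and 46.5 to 60.3 CPM over MR, and the 23 mitotic genes other than Cenpf 16.05 to 44.6 CPM and 28.8 to 65.3 CPM.

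The mitotic genes also spread more from library to library. The ratio of the highest to the lowest library had a median of 1.77 over the replication genes and 5.04 over the mitotic genes other than Cenpf. It was 1.45 over all genes tested with reads in every library, and 1.89 over the 5858 of them with a mean from 0.363 to 6.38 CPM, the range of those mitotic genes. That set matches the outer range only, and the replication genes had means from 1.72 to 10.45 CPM. Low counts, such as 3 for Bub1 in Sham replicate 4, widen the ratio, and the part of counting error was not tested. The median SE of the log2 fold change was 0.34 for the mitotic genes, 0.15 for the replication genes and 0.11 for all genes tested.

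**Figure D3:**
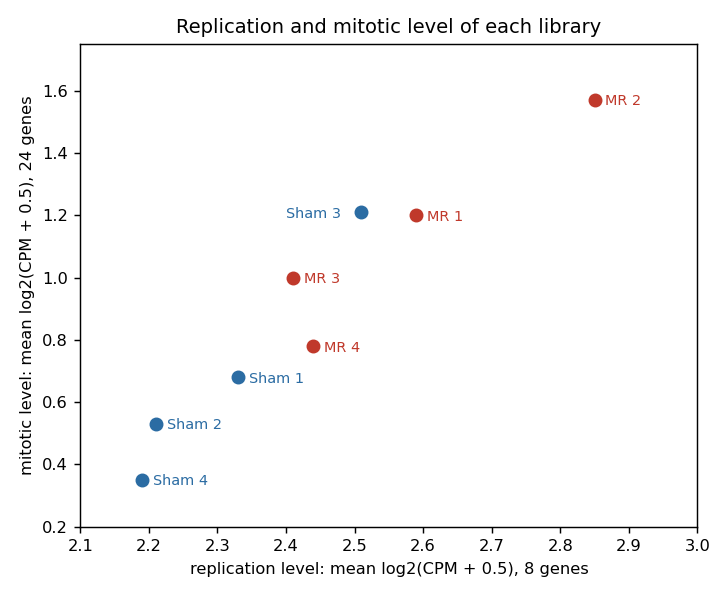
Replication level (8 genes) against mitotic level (24 genes) of each library, both as the mean log2(CPM + 0.5), with Sham in blue and MR in red. The libraries run from Sham replicate 4 (2.19 and 0.35) at the lower left to MR replicate 2 (2.85 and 1.57) at the upper right, and Sham replicate 3 (2.51 and 1.21) lies next to MR replicate 1.

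The promoters of these genes were read for motifs known from cell cycle genes. CCAAT is the site of the factor NF-Y. The cell cycle homology region, searched as TTTGAA or TTTCGAA, is bound by the MuvB complex at late cell cycle genes. The E2F site was searched as TTTCCCGC, TTTCGCGC, TTTGCCGC or TTTGGCGC. The search covered both strands of the 250 bases before the RefSeq start (GRCm38.p6), matches of 1 motif that overlapped were merged, and no match overlapped one of another motif. A promoter was found for 27 of the 32 genes and for 27025 genes in all. Shown are 3 mitotic genes with positive fold changes (Ccnb2, Kif11 and Top2a), 2 replication genes with E2F letters (Mcm5 and Mcm6) and Cenpf, the only gene with all MR libraries below all Sham libraries. Each line gives the 200 bases before the start, 5′ to 3′ on the strand of the gene, with motif letters in capitals.
Ccnb2, chr9:70421555-70421754, minus strand: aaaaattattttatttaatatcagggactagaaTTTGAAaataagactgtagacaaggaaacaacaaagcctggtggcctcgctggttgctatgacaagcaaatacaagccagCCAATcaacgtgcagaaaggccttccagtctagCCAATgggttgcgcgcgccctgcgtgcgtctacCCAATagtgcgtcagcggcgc
Kif11, chr19:37376182-37376381, plus strand: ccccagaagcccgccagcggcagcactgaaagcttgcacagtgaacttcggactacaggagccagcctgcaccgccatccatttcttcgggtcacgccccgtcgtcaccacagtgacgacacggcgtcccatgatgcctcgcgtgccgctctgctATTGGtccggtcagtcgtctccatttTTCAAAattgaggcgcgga
Top2a, chr11:99024190-99024389, minus strand: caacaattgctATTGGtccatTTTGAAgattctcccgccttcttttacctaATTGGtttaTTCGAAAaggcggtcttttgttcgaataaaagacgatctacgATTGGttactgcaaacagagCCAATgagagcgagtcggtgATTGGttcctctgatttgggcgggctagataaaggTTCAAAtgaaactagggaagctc
Mcm5, chr8:75109309-75109508, plus strand: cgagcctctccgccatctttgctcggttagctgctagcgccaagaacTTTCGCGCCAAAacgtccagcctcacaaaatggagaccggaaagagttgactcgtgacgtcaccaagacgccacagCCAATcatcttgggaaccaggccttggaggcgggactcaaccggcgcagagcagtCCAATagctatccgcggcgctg
Mcm6, chr1:128359706-128359905, minus strand: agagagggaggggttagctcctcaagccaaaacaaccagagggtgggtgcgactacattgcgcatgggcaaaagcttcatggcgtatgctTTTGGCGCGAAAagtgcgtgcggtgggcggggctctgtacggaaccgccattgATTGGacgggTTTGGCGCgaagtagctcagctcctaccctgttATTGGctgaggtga
Cenpf, chr1:189688087-189688286, minus strand: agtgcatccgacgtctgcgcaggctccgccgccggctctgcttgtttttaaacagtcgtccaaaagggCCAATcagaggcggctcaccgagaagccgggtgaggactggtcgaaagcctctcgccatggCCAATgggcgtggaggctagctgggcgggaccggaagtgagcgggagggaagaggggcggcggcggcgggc

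CCAAT stood in 23 of the 27 promoters (85.2%), beside 37.5% of all genes with a promoter. It was found in 6 of 7 replication genes and 17 of 20 mitotic genes, and 15 of the 27 (55.6%) held 2 or more, beside 11.3% of all genes. In Ccnb2 the 3 CCAAT matches begin at −87, −54 and −21, where −1 is the last base before the start. The homology region letters stood in 2 of 7 replication genes and 8 of 20 mitotic genes, beside 18.8% of all genes. In Kif11 they begin at −19, and the last of 3 such matches in Top2a begins at −23, in both genes closer to the start than any CCAAT. In Ccnb2 they begin at −167, farther from the start than any CCAAT shown. E2F letters stood in 3 of 7 replication genes (Mcm5, Mcm6 and Mcm7) and 1 of 20 mitotic genes (Cdk1), beside 2.16% of all genes. The Mcm5 match at −153 and the Mcm6 match at −110 span 12 bases that hold the letters on both strands. The Cenpf window holds CCAAT at −132 and −71 and no letters of the other motifs. These matches describe the letters of the windows and show no binding.

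Of 38 further mitotic genes, 36 were tested, and 0 rose and 0 fell in edgeR. Their log2 fold change was positive in 34 and negative in 2, with a median of 0.61. At an unadjusted p under 0.05 there were 11 higher and 1 lower, beside 7.78% and 7.29% of all genes tested. Smc2, a condensin subunit that compacts chromosomes, was nearest to the threshold, with 4.77 ± 0.291 CPM over Sham and 6.42 ± 0.624 CPM over MR (SD, n = 4 each; log2 fold change 0.43, edgeR adjusted p 0.0877). All its MR libraries were above all its Sham libraries, a pattern shown by 4.19% of all genes tested. Ncapg, another condensin subunit, Sgo1, the protector of centromeric cohesion, and Spc25, a kinetochore protein, had log2 fold changes of 1.21, 1.02 and 0.74 (edgeR adjusted p 0.192 to 0.238). MR replicate 2 was the highest library in 26 of these 36 genes and Sham replicate 3 the highest Sham library in 28. Over all genes tested they held those places in 11.4% and 26.9%.

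Of 34 further replication genes, 0 rose and 0 fell in edgeR, 21 had positive and 13 negative log2 fold changes, and the median was 0.13, with 3 higher and 0 lower at an unadjusted p under 0.05, beside 7.78% and 7.29% of all genes. MR replicate 2 was the highest library in 14 of the 34 (41.2%, beside 11.4% of all genes). Sham replicate 3 was the highest Sham library in 6 (17.6%, beside 26.9% of all genes). Sham replicate 1 was the highest Sham library in 15 (44.1%, beside 32.25% of all genes). Uhrf1, which maintains DNA methylation behind the replication fork, had a log2 fold change of 0.64 (edgeR adjusted p 0.128). The loading factor Cdc6 was 2.29-fold higher in MR, with 2 counts in Sham replicate 4 (edgeR adjusted p 0.292). Pcna, the sliding clamp of the replication fork, had a log2 fold change of −0.13 (edgeR adjusted p 0.537), and was singled out after its value was seen.

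Of 19 genes for pocket proteins, E2F and MuvB proteins and mitotic transcription factors, 0 rose and 0 fell in edgeR. The median log2 fold change was 0.07. At an unadjusted edgeR p under 0.05, 4 were higher and 1 was lower, beside 7.78% and 7.29% of all genes tested. Foxm1, a factor that drives mitotic genes, averaged 0.843 ± 0.276 CPM over Sham and 1.64 ± 0.495 CPM over MR (SD, n = 4 each; log2 fold change 0.95, edgeR adjusted p 0.116). Its MR libraries were all above its Sham libraries, with 1.171 and 1.189 CPM as the closest values. E2f1 and E2f2, activators of replication genes, had log2 fold changes of 0.81 and 0.79, and Tfdp2, a partner of the E2F proteins, of −0.36 (edgeR adjusted p 0.275, 0.250 and 0.132). E2f2 also had MR above Sham throughout, and Tfdp2 had MR below Sham throughout. Of all genes tested, 4.19% had MR above and 3.91% had MR below throughout.

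Of 10 genes for G1 cyclins and their kinases, 0 rose and 0 fell in edgeR, with a median log2 fold change of 0.03. At an unadjusted p under 0.05, 1 was higher and 0 were lower, beside 7.78% and 7.29% of all genes tested. Ccnd1, cyclin D1, which carries growth signals into the cycle, had 39.7, 36.4, 57.9 and 34.6 CPM in the Sham libraries. The MR libraries had 62.9, 69.5, 60.0 and 56.2 CPM, and Sham replicate 3 alone reached into their range (log2 fold change 0.56 ± 0.15 SE, edgeR adjusted p 0.104). Ccne2, Cdk2 and Ccnh were at 0.23, −0.16 and −0.16 on the log2 scale (edgeR adjusted p 0.366 to 0.451). Of 8 genes for CDK inhibitors, which hold the cycle back, 7 were tested, and 0 rose and 0 fell. Of these 7, 0 were higher and 1 was lower at an unadjusted p under 0.05, beside the same shares of all genes. Cdkn1a, which encodes p21, had a log2 fold change of −0.28, Cdkn2d of −0.19, Cdkn2b of 0.59 and Cdkn1b of −0.07 (edgeR adjusted p 0.288 to 0.708).

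**Figure D4:**
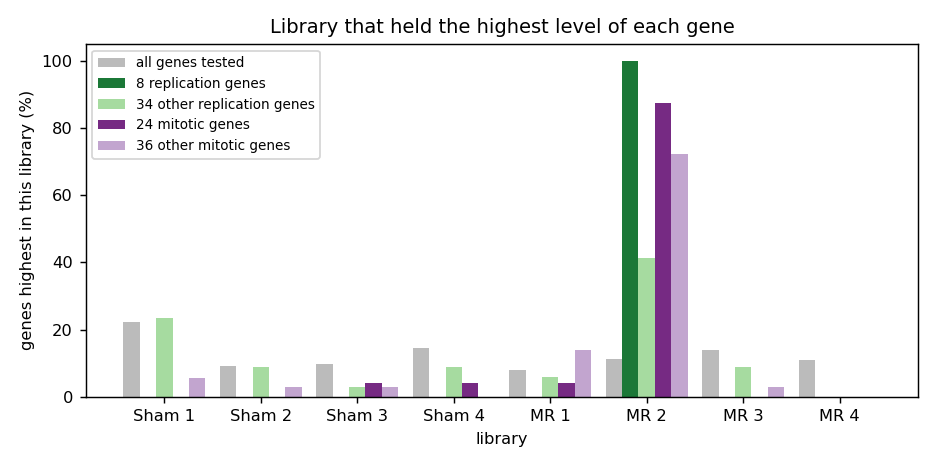
Percentage of genes whose highest level was in each library, for all genes tested, the 8 replication genes, 34 other replication genes, the 24 mitotic genes and 36 other mitotic genes. MR replicate 2 holds the highest level of 100% of the replication genes, 41.2% of the other replication genes, 87.5% of the mitotic genes and 72.2% of the other mitotic genes, against 11.4% of all genes tested.

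Markers of cell types that the tissue could hold were summed in each library. The cardiomyocyte markers were abundant in all 8 libraries, as the heart label says. The 8 fibroblast markers summed to 903 to 1000 CPM over Sham and to 1110 to 1305 CPM over MR. Sham replicate 3 and MR replicate 3 were the highest of their groups. Of the 8 markers, 6 had positive and 2 negative log2 fold changes. In edgeR 2 rose (Col1a1 and Col1a2) and 0 fell, where 0.241% of all genes tested rose. The sum includes these collagen genes, and their part in it was not tested. The 7 endothelial markers ran from 1097 to 1258 and 1152 to 1224 CPM over Sham and MR, the 7 pericyte and smooth muscle markers from 1301 to 1557 and 1463 to 1601 CPM, and the 7 macrophage markers from 241 to 260 and 220 to 241 CPM. No gene of these 3 lists passed in edgeR. Sham replicate 3 held the highest macrophage sum of all 8 libraries. The 7 neutrophil markers summed to 32.5, 11.9, 8.96 and 59.65 CPM in the Sham libraries and to 3.45 to 6.315 CPM over MR, lowest among Sham in replicate 3. The 7 markers of neutrophil precursors, which divide, summed to 0.428 to 18.45 CPM over Sham, also lowest in replicate 3, and to 0.251 to 0.607 CPM over MR, and Mpo, Elane, Prtn3 and Ctsg were at 0 counts in at least 4 libraries. The 7 lymphocyte markers summed to 1.07 to 1.997 and 1.64 to 2.89 CPM. The 7 erythroid markers summed to 310 to 560 and 377 to 726 CPM. Of the neutrophil, neutrophil precursor, lymphocyte and erythroid markers, 6, 2, 5 and 6 were tested, and 0 passed in edgeR. The part of all these cell types in the values of the cell cycle genes was not tested.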

How the data were processed

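The authors deposited whole-number read counts for 33105 mouse genes under Ensembl identifiers, in 8 heart libraries. HISAT2 2.0.5 and mm10 are named in the submitters' processing notes, without roles. The sources used here do not state the counting tool, its annotation or its use of strand. Totals were 42291511 to 58658094 counts, and 3 counts, the limit that a count of 0 allows, equalled 0.0511 to 0.0709 CPM (counting error only). Genes with 2 counts outnumbered those with 1 by 2.27 to 2.82 times, so read ends may have been counted singly. In that case 1 fragment can give 2 counts, and the limit of 3 counts is too low. Columns were matched by title and groups by treatment label; replicate numbers only name libraries.

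Symbols, positions and exon lengths came from GENCODE M21 (GRCm38; 32350 identifiers matched). The filter was filterByExpr in edgeR 4.0.16, with a minimum count of 10 and a minimum total of 15. Scaling was by TMM (factors 0.967 to 1.019), and the test was the robust quasi-likelihood F test (R 4.3.3), adjusted by Benjamini-Hochberg over 16603 genes at 0.05. It was tested on simulated data with the same dispersion for every gene, which does not cover the wider spread of the mitotic genes. The SE of a log2 fold change in edgeR was its absolute value divided by the square root of the F statistic. CPM use the TMM-scaled totals. Alternatives were DESeq2 1.42.0, limma-voom 3.58.1, other scalings, filters and pseudocounts, and each library left out. Members and lists were chosen with earlier results of these data known. All 32 members are named, with the genes of the 4 lowest p-values of each further list, of which some are not reported here; 109 of 110 listed genes were analysed. Near-identical copies were sought with BLAST from each member's longest transcript, at 95% identity over 200 bases.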

Additional observations from a re-analysis of the deposited data

Results flagged for a closer look

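For each gene and for the replication and mitotic levels, the Sham and the MR libraries were searched for a library that stood apart from the other 3 by Dixon's 95% limit. This held in 4 of 68 groups of libraries, and chance gives about 1 in 20. Sham replicate 3 stood above the other Sham libraries for Ccna2 (1.37 against 0.518 to 0.616 CPM) and for Ccnb1 (0.518 against 0.108 to 0.142 CPM). MR replicate 2 stood above the other MR libraries for Aurka (1.42 against 0.604 to 0.708 CPM) and for Plk1 (0.798 against 0.553 to 0.587 CPM).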

How the results depend on the processing

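No paired analysis was possible because the groups share no replicate numbers in the labels. The number of members that passed, 0 higher and 0 lower, was the same with RLE factors, with library totals and without robust moderation, and under a filter on CPM, which left 23 of the 32 to test. It was 9 higher without a filter on low counts, 1 higher and 1 lower in limma-voom, 1 lower in DESeq2, 0 to 7 higher with a library left out (7 without Sham replicate 3, otherwise 0) and 2 higher without both Sham replicate 3 and MR replicate 2. The number of all genes that passed, 76, was 936 without a filter, 618 in DESeq2, 457 in limma-voom, 3 to 887 with a library left out, the lowest without Sham replicate 2 and the highest when replicate 3 of that group was omitted, and 590 without both libraries. The causes were not tested. Library totals in place of TMM moved the median of all genes to 0.05 on the log2 scale. The log2 fold changes of 29 of the 32 members kept their direction in all 16 alternatives that tested them. Of the others, Mcm7 was at 0.03 with library totals, 0.03 in limma-voom and −0.09 to 0.04 with a library left out, Aurka at 0.04 with library totals and −0.35 to 0.14 with a library left out, and Kif20a at −0.02 to 0.44 with a library left out. The difference of MR from Sham was larger in the mitotic than in the replication level by 0.18, by 0.34 with a pseudocount of 0.1 CPM and by 0.10 with 1 CPM. Depth limits the genes with few reads, such as Ccnb1 with 5 to 36 counts.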
